A study of Mus musculus with 16 samples.

Results

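The comparison described here is that of the high cholesterol diet with chow in livers of mice that lack c-Met, made on the 8 arrays of that genotype out of the 16 of the study. The arrays were chosen by their labels alone: 4 were labelled c-Met KO on the high cholesterol diet and 4 c-Met KO on chow. Both groups were conditional c-Met knockout (KO) mice on the mixed background strain 129SV/C57BL/6, and liver tissue was taken after 30 days of feeding. The high cholesterol group ate food with 2% cholesterol and, as a salt of a bile acid, 0.5% sodium cholate, and the chow group ate a regular chow diet. The remaining 8 arrays came from wild type (WT) mice of the same strain, 4 on each diet, and were used here only where the response of the KO was set against that of the WT. Both KO groups are labelled with the same deletion. The labels do not give the Cre driver, the sex or the age of the mice, and they do not say that the replicates came from separate animals, so p-values measure only the spread between these samples.

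c-Met is the receptor tyrosine kinase for hepatocyte growth factor, which supports hepatocyte survival and liver repair. The liver makes cholesterol, converts it to bile acids, and exports both into bile. Cholesterol lowers its own synthesis through SREBP2, a membrane-bound transcription factor that is cut and released when sterols run low. Oxysterols activate the liver X receptor (LXR), which drives sterol export. Bile acids activate the farnesoid X receptor, which lowers the synthesis of further bile acids and raises their export. Cholate in the food increases cholesterol uptake from the gut and adds to the bile acid load of the liver.

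Each array read liver RNA with bead-bound probes. Values below are log2 signals after normalization, listed in the order of replicates 1 to 4, and a change is the log2 difference of high cholesterol minus chow with its standard error (n = 4 arrays in each group). A gene was called where its adjusted p from limma, a linear model fitted over all genes, was under 0.05. Between 11188 and 11416 probes were detected on the chow arrays and between 10028 and 10632 on the high cholesterol arrays. The SD of signals of probes never detected in the study was 4.47 to 4.73 intensity units on chow and 6.54 to 7.23 on high cholesterol. The files used here give no slide or scan, so diet and array batch cannot be told apart. All 11 hepatocyte markers tested were detected in the tissue labelled liver, with 3 higher, 0 lower and a median change of 0.07; with arrays scaled only to a common median, 3 were higher and 4 lower. Met, the targeted gene, had 1 probe, detected on 3 chow arrays and 1 high cholesterol array, and its change was -0.33 ± 0.15 (adjusted p = 0.133); the sources used here do not say whether that probe falls inside the deleted part, so it did not check the genotype. Among WT arrays the probe was detected on 2 on chow and 1 on high cholesterol, and the KO values were not set apart from them: in the fit on all 16 arrays it read 4.54, 4.46, 5.00 and 5.28 on WT chow, 4.74, 5.17, 4.89 and 4.76 on WT high cholesterol, 5.25, 4.90, 5.50 and 5.15 on KO chow and 5.11, 4.69, 4.94 and 4.63 on KO high cholesterol.

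Of 8193 genes tested, 2380 (29.0%) were called between the diets, 1231 (15.0%) higher and 1149 (14.0%) lower on high cholesterol. The groups did not overlap for 2503 genes (30.6%), and 86.5% of the called genes were among them. Most changes were small: 318 called genes rose and 141 fell by over 1 on the log2 scale, while 22 rose and 32 fell by over 2, so the falls reached further. The median change of all genes was -0.03, the value beside which the medians of gene lists below are to be read. Counts of list members called are likewise to be read beside the 15.0% higher and 14.0% lower of all genes. Scaling the arrays only to a common median turned the balance of the calls, with 1048 higher and 1711 lower, so the directions of broad groups with small changes depend on the scaling. Without chow replicate 3 the number of genes called lower was 752. The 4 chow arrays were closer to each other (correlations across genes of 0.986 to 0.992) than the 4 high cholesterol arrays (0.965 to 0.980). High cholesterol replicate 3 stood apart: 107 genes lay over 1 log2 above each of the other high cholesterol arrays and 38 as far below, against 6 to 13 and 15 to 16 for the others. Its values are given beside many of the genes and lists they touch, but not beside all. In counts of gene lists, a value given without an array is that with this array alone left out, and a value given with median scaling is that with the arrays scaled to a common median.

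**Figure D1:**
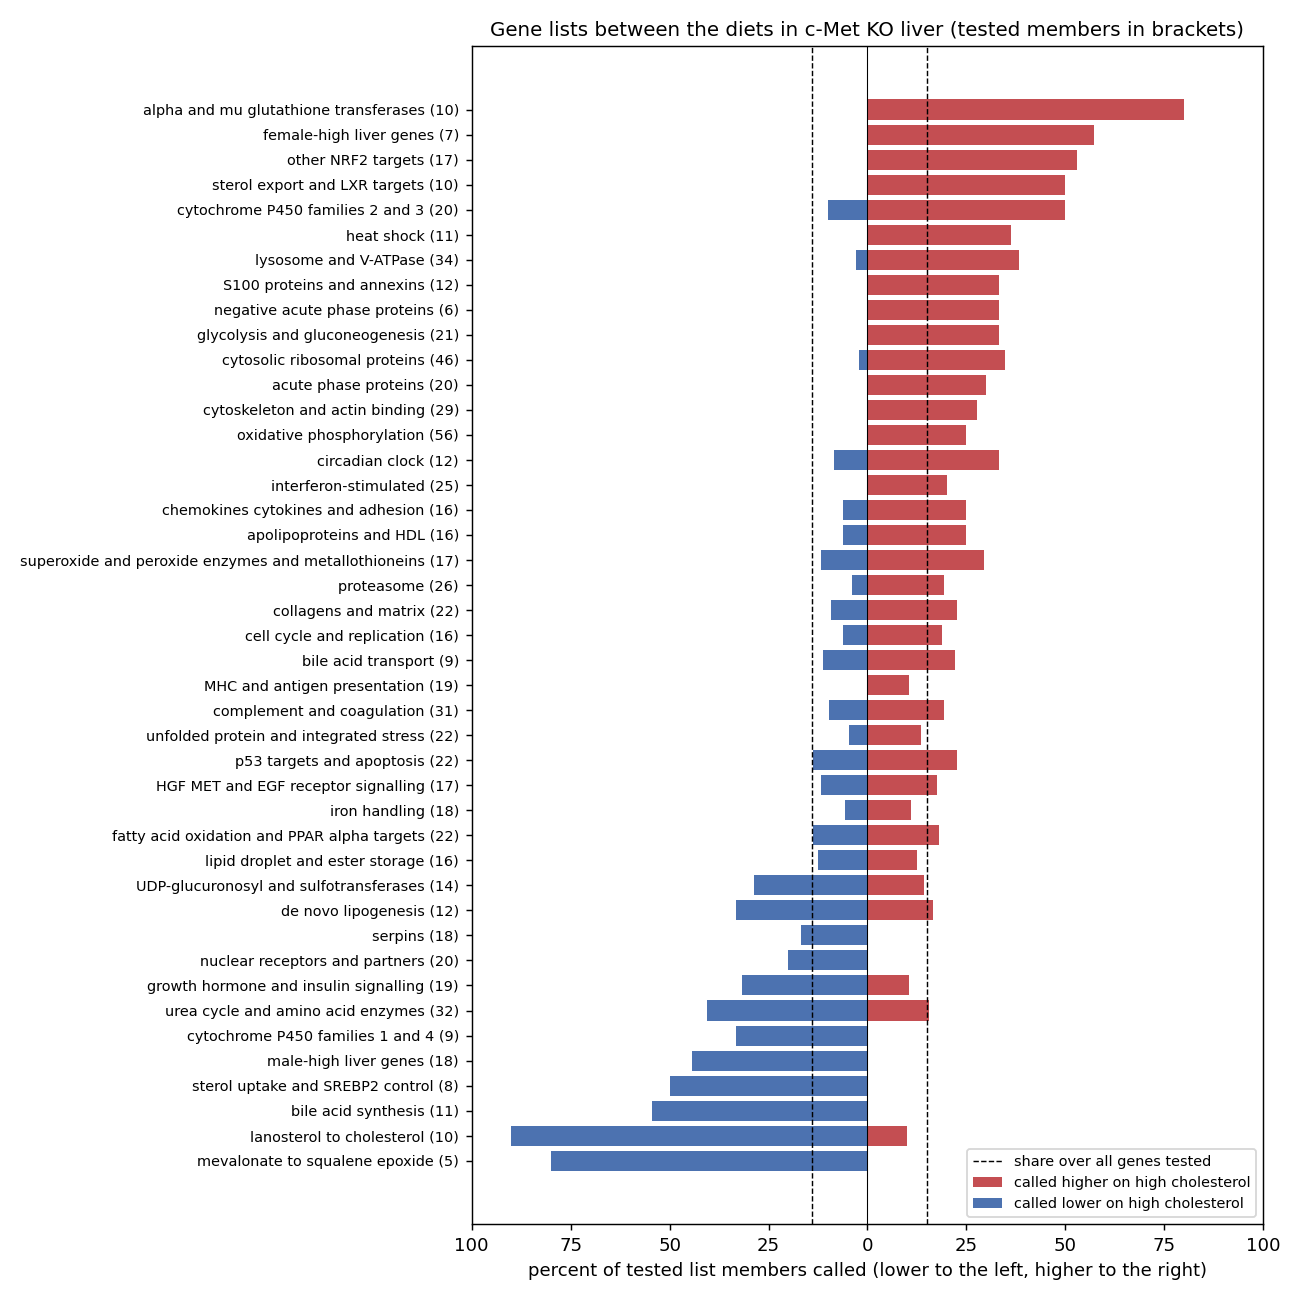
Share of tested members of each pathway gene list (cell type lists are not drawn) called higher (right) or lower (left) on the high cholesterol diet in KO liver, with the number tested in brackets and the shares over all genes, 15.0% and 14.0%, as dashed lines. Among these lists, those of sterol and bile acid synthesis extend furthest to the left, and the glutathione transferase list, with 8 of 10 members called higher, furthest to the right.

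Bile acid synthesis held the 2 largest falls of the comparison. Of 11 genes tested, 6 fell and 0 rose, with a median change of -0.51. Cyp8b1, the sterol 12alpha-hydroxylase that commits bile acids to cholic acid, read 13.14, 13.11, 13.12 and 13.10 on the chow arrays and 4.53, 4.50, 4.61 and 4.87 on the high cholesterol arrays. The chow arrays lay together at a high level, and no high cholesterol array detected the gene. It fell by 8.49 ± 0.12 (adjusted p = 1.54e-11), and measured against the lowest detectable signal it was at least 268-fold lower. Cyp7a1, the rate-limiting enzyme of the classic pathway, read 12.07, 10.74, 10.42 and 10.56 on the chow arrays and 4.57, 4.34, 6.44 and 4.99 on the high cholesterol arrays. Replicate 3 was the only high cholesterol array that detected it, and the groups lay far apart. Cyp7a1 fell by 5.86 ± 0.47 (adjusted p = 3.39e-05).

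Enzymes of the alternative pathway also fell. Cyp7b1, the oxysterol 7alpha-hydroxylase, read 12.80, 13.61, 12.74 and 12.78 on the chow arrays and 11.30, 10.33, 10.90 and 11.76 on the high cholesterol arrays. Every high cholesterol array lay below every chow array, replicate 4 being the highest and replicate 2 the lowest on that diet, and Cyp7b1 fell by 1.91 ± 0.29 (adjusted p = 0.00121). Chow replicate 2 was the highest of all 8 arrays. Cyp27a1, the sterol 27-hydroxylase, fell by 0.70 ± 0.16 (adjusted p = 0.00853), and Hsd3b7, the dehydrogenase that acts on the sterol ring next, fell by 0.94 ± 0.15 (adjusted p = 0.00156). Slc27a5, which activates bile acids for conjugation, fell by 0.51 ± 0.13 (adjusted p = 0.017), with groups that did not overlap, but it was not called without chow replicate 1 (adjusted p up to 0.052). Baat, which joins bile acids to taurine or glycine, did not pass the test at 0.53 ± 0.20 (adjusted p = 0.0666).

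Among 9 bile acid transporters tested, 2 rose and 1 fell. Ostb, a subunit of the basolateral bile acid exporter named Slc51b in current annotation, read 4.68, 4.60, 5.43 and 4.60 on the chow arrays and 6.99, 6.90, 7.99 and 7.50 on the high cholesterol arrays. A single chow array detected it and all high cholesterol arrays did, and the groups were far apart. It rose by 2.52 ± 0.26 (adjusted p = 0.0002). Abcb11, the canalicular bile salt pump, read 10.01, 10.43, 10.37 and 10.36 on the chow arrays and 10.90, 11.21, 10.68 and 11.30 on the high cholesterol arrays. The groups did not overlap, with high cholesterol above chow, and Abcb11 rose by 0.73 ± 0.16 (adjusted p = 0.00904). Slc10a1, the sodium-dependent uptake transporter, was dim on all arrays; it fell by 0.53 ± 0.17 (adjusted p = 0.0345), and was not called without chow replicate 2 or 4 or high cholesterol replicate 2 or 3 (adjusted p up to 0.0953). Slco1a4, an organic anion importer, spread from 4.53 to 7.77 on the high cholesterol arrays and did not pass the test at 0.84 ± 0.58 (adjusted p = 0.296).

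**Figure D2:**
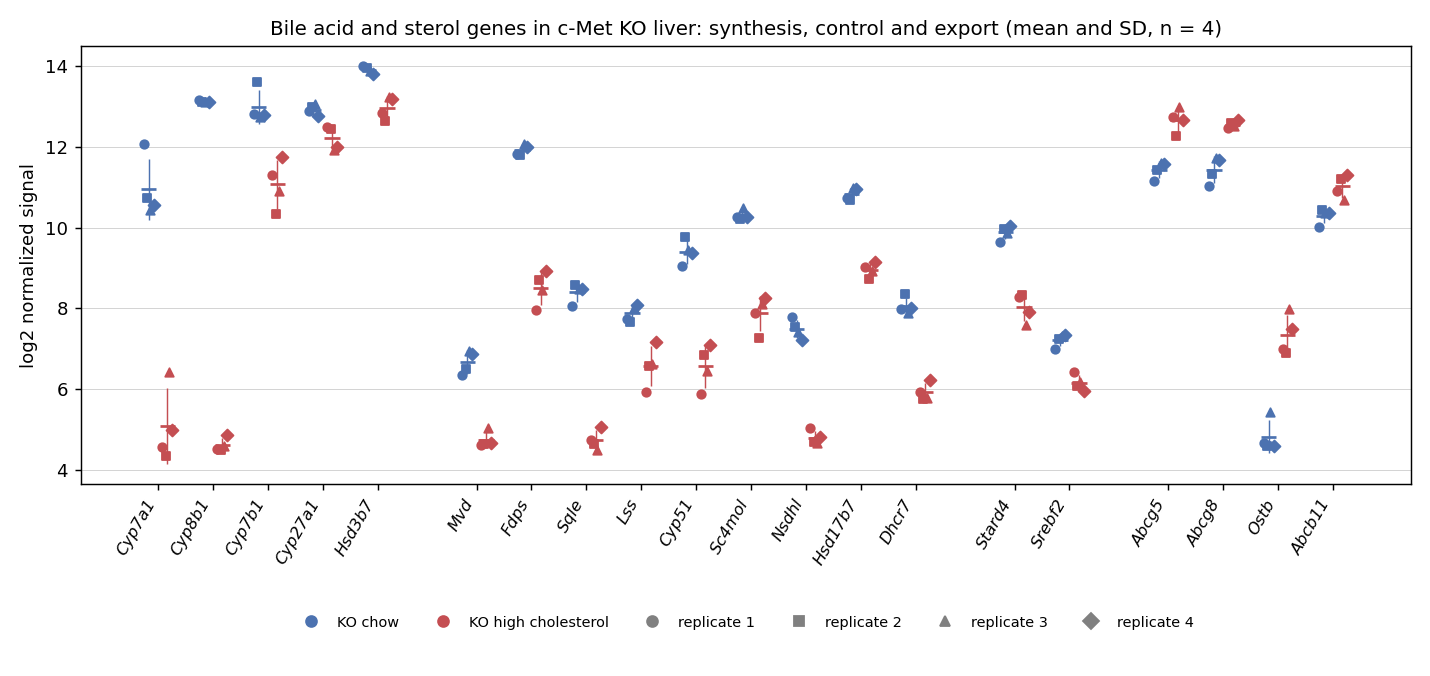
Log2 normalized signal of bile acid and sterol genes on the 4 chow and 4 high cholesterol KO arrays, 1 symbol shape per replicate, with means and SDs. Cyp8b1 drops from 13.1 on every chow array to between 4.50 and 4.87, the sterol synthesis genes drop without overlap, and Abcg5, Abcg8 and Ostb rise.

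Most tested genes of cholesterol synthesis fell. Of 10 genes listed from acetyl units to squalene epoxide 5 were tested, and of these 4 fell, with a median of -1.93. Of 10 from lanosterol to cholesterol, 9 fell and 1 rose, with a median of -1.59. The number risen was 0 when the probes of each gene were averaged. Fdps, the farnesyl diphosphate synthase, read 11.82, 11.80, 12.07 and 12.00 on the chow arrays and 7.95, 8.69, 8.45 and 8.92 on the high cholesterol arrays. All high cholesterol arrays detected it, and it fell by 3.42 ± 0.19 (adjusted p = 3.84e-06), a 10.7-fold difference. Sqle, which forms squalene epoxide, read 8.05, 8.59, 8.49 and 8.48 on the chow arrays and 4.75, 4.65, 4.49 and 5.07 on the high cholesterol arrays. It was detected on no high cholesterol array and fell by 3.66 ± 0.16 (adjusted p = 8.65e-07), at least 10.2-fold against the lowest detectable signal. Mvd, the mevalonate diphosphate decarboxylase, fell by 1.93 ± 0.17 (adjusted p = 5.91e-05), and Pmvk, the kinase before it, fell by 0.91 ± 0.15 (adjusted p = 0.00195).

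In the later steps, Cyp51, the lanosterol demethylase, read 9.04, 9.76, 9.44 and 9.37 on the chow arrays and 5.88, 6.85, 6.45 and 7.10 on the high cholesterol arrays. The groups were separated by almost 2 log2 units at their nearest arrays, and it fell by 2.83 ± 0.25 (adjusted p = 5.96e-05). Nsdhl, which removes a carboxyl group from the C4 position, read 7.78, 7.54, 7.43 and 7.23 on the chow arrays and 5.04, 4.70, 4.67 and 4.82 on the high cholesterol arrays. All 4 high cholesterol arrays were below the chow arrays, and Nsdhl fell by 2.69 ± 0.15 (adjusted p = 3.74e-06). Its partners at that position also fell: Sc4mol, the C4 oxidase now named Msmo1, fell by 2.43 ± 0.20 (adjusted p = 3.69e-05), and Hsd17b7, the ketone reductase, fell by 1.88 ± 0.14 (adjusted p = 2.15e-05). Dhcr7, which makes cholesterol from its last precursor, fell by 2.13 ± 0.15 (adjusted p = 2.07e-05). Lss, the lanosterol synthase, fell by 1.30 ± 0.23 (adjusted p = 0.00241), and Tm7sf2, a C14 reductase, fell by 1.10 ± 0.17 (adjusted p = 0.00111). Falls were smallest for Ebp, the sterol isomerase, at -0.79 ± 0.14 (adjusted p = 0.00262), and Sc5d, the C5 desaturase, at -0.83 ± 0.25 (adjusted p = 0.032); Sc5d was not called without chow replicate 1, 3 or 4 or high cholesterol replicate 1 (adjusted p up to 0.0852).

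Of 8 genes of sterol uptake and SREBP2 control tested, 4 fell and 0 rose, with a median of -0.68. Stard4, a cholesterol carrier, fell by 1.85 ± 0.18 (adjusted p = 0.000107), and Srebf2, the gene of SREBP2, fell by 1.06 ± 0.14 (adjusted p = 0.000598). Insig1, which holds SREBP2 in the endoplasmic reticulum, did not pass the test at 0.15 ± 0.20 (adjusted p = 0.613). That was on the probe brightest over the 8 arrays, so the 4 fallen genes do not include it. Its other 2 probes were brighter on chow, at means of 9.28 and 9.04 against 8.48. In limma over all kept probes they gave changes of -1.50 ± 0.22 (adjusted p = 0.000942) and -1.46 ± 0.24 (adjusted p = 0.00164).

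The promoters of the genes that fell were read from RefSeq, since SREBP2 acts on sterol elements together with the factor NF-Y, whose letters are CCAAT. Of 17 called-lower genes of the 3 sterol lists, 12 had an entry, with 15 windows of 250 bases before to 50 after the start. On either strand, CCAAT stood in at least 1 window of 12 of the 12 genes and in 12 of 15 windows (80%), against 37.4% of all 32851 windows. The letters TCACNCCAC, a classic sterol element, stood in 0 of the 15 windows (1.24% of all windows), and TGACNNNGC, an antioxidant element, in 3 (12.4% of all windows). None of these motifs contains another, and a match is a description of the sequence only. CCAAT also stood in 8 of 11 windows (72.7%) of the glutathione transferase genes that rose, described below. The other 5 had no entry. The 250 bases before the start site are shown for 3 of the genes that fell, to show where from 1 to 3 such boxes lie; they run 5′ to 3′ in build GRCm38.p6, with CCAAT or its reverse complement in capitals. The windows are chrX:72918271-72918520 on the plus strand for Nsdhl, chr1:169969206-169969455 on the minus strand for Hsd17b7 and chr5:4104698-4104947 on the minus strand for Cyp51.
Nsdhl: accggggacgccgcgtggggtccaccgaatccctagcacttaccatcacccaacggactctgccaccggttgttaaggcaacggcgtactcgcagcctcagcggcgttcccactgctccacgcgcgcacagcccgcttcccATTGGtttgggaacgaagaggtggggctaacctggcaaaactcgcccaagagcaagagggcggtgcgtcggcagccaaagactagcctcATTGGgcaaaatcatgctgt
Hsd17b7: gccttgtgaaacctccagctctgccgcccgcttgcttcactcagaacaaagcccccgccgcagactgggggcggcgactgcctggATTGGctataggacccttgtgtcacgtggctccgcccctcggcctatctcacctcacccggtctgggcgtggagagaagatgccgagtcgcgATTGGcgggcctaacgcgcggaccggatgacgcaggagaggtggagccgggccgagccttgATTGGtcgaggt
Cyp51: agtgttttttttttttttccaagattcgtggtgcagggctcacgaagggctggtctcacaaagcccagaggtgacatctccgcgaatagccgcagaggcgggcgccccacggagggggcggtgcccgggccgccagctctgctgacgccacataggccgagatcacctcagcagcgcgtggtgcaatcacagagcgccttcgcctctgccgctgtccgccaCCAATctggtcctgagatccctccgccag
Nsdhl held 2 boxes in this stretch, Hsd17b7 held 3 and Cyp51 held 1.

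Of 10 export and LXR target genes tested, 5 rose and 0 fell (1 without high cholesterol replicate 3, 1 with median scaling), with a median of 0.70. Abcg5 and Abcg8 form the pump that moves cholesterol into bile. Abcg5 read 11.14, 11.42, 11.61 and 11.56 on the chow arrays and 12.74, 12.27, 12.99 and 12.67 on the high cholesterol arrays. No chow array reached the lowest high cholesterol array, and Abcg5 rose by 1.23 ± 0.17 (adjusted p = 0.000762). Abcg8 read 11.02, 11.32, 11.71 and 11.67 on the chow arrays and 12.45, 12.58, 12.50 and 12.65 on the high cholesterol arrays. High cholesterol arrays were above chow without overlap, and Abcg8 rose by 1.12 ± 0.16 (adjusted p = 0.000965). Scd1, the desaturase that makes monounsaturated fatty acids, rose by 1.10 ± 0.14 (adjusted p = 0.00052), and Pltp, the phospholipid transfer protein, rose by 0.72 ± 0.14 (adjusted p = 0.00458). Lpl, the lipoprotein lipase, rose by 1.35 ± 0.43 (adjusted p = 0.0384) with overlapping groups, and was not called without chow replicate 1, 2 or 3 or high cholesterol replicate 2, 3 or 4 (adjusted p up to 0.103). Srebf1, the lipogenic transcription factor, showed 0.03 ± 0.39 (adjusted p = 0.959): replicate 2 was low in each group, at 7.49 on chow and 7.45 on high cholesterol, and the rest lay between 8.71 and 8.99. Abcg1, a cholesterol exporter to HDL, did not pass the test at 0.68 ± 0.27 (adjusted p = 0.0821).

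Of 12 lipogenic genes tested, 2 rose (1 without chow replicate 2 or 4) and 4 fell (2 without chow replicate 3), with a median of -0.46. Among those that fell, Elovl5, an elongase, fell by 0.73 ± 0.15 (adjusted p = 0.00574), Fads2, the delta-6 desaturase, fell by 0.62 ± 0.12 (adjusted p = 0.00422), and Fads1, the delta-5 desaturase, fell by 0.57 ± 0.15 (adjusted p = 0.0193). Fads1 was not called without chow replicate 3 (adjusted p up to 0.0613). Gpam, the first enzyme of glycerolipid synthesis, fell by 0.95 ± 0.29 (adjusted p = 0.0341); it was not called without chow replicate 1, 3 or 4 (adjusted p up to 0.0937). Soat2, which esterifies cholesterol for storage, rose by 0.94 ± 0.23 (adjusted p = 0.0123), and the lipid droplet list held 2 risen and 2 fallen genes of 16, shares near those of all genes; the number risen was 4 without high cholesterol replicate 3, and the number fallen 1 without chow replicate 1, 2 or 3 or high cholesterol replicate 1, 3 or 4.

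In fatty acid oxidation, 4 of 22 genes rose and 3 fell, shares near those of all genes, and scaling to a common median gave 3 and 6; the number risen was 1 without chow replicate 2, 3 or 4 or high cholesterol replicate 1, 2 without chow replicate 1 or high cholesterol replicate 2. Ehhadh, the peroxisomal bifunctional enzyme, read 7.51, 7.40, 7.53 and 7.27 on the chow arrays and 9.29, 9.02, 8.56 and 8.94 on the high cholesterol arrays. Here too the high cholesterol values were all above those on chow, and Ehhadh rose by 1.52 ± 0.16 (adjusted p = 0.000185). Acot3, a peroxisomal thioesterase, rose by 2.43 ± 0.70 (adjusted p = 0.0259), and was not called without chow replicate 2, 3 or 4 or high cholesterol replicate 1 or 2 (adjusted p up to 0.07). Cyp4a14, a fatty acid hydroxylase, did not pass the test at 0.49 ± 0.88 (adjusted p = 0.701), with high cholesterol replicate 4 far below the others. Of 16 apolipoprotein and HDL genes, 4 rose and 1 fell (3 and 6 with median scaling). Apoh rose by 1.03 ± 0.10 (adjusted p = 0.000162), Mttp, which loads lipid onto apolipoprotein B, rose by 0.60 ± 0.15 (adjusted p = 0.0122), and Apoa2, a structural protein of HDL, fell by 0.37 ± 0.11 (adjusted p = 0.0286). Apoa2, the 1 gene of this list that fell, was not called without chow replicate 1, 3 or 4 or high cholesterol replicate 1 or 4 (adjusted p up to 0.0786).

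Detoxification genes held the largest rise of the comparison, that of Gsta1. Of 10 alpha and mu class glutathione transferases, which join glutathione to reactive compounds, 8 rose and 0 fell (1 with median scaling), with a median of 1.41. Gsta1 read 7.29, 5.48, 6.96 and 7.16 on the chow arrays and 9.78, 12.80, 10.04 and 12.62 on the high cholesterol arrays. Replicates 2 and 4 of the high cholesterol group were well above replicates 1 and 3, and all 4 were above chow. It rose by 4.59 ± 0.70 (adjusted p = 0.00113), a 24.1-fold difference of means. Gsta2 read 8.11, 7.06, 7.67 and 7.53 on the chow arrays and 9.91, 11.87, 9.71 and 12.35 on the high cholesterol arrays. Chow and high cholesterol arrays were fully separate, the latter higher, replicate 4 being the highest and replicate 3 the lowest on that diet, and Gsta2 rose by 3.37 ± 0.54 (adjusted p = 0.00149). Gstm3 read 4.42, 4.45, 4.37 and 4.93 on the chow arrays and 5.66, 8.85, 6.11 and 8.26 on the high cholesterol arrays, detected on 1 chow array. It passed the detection filter only through the high cholesterol arrays, so it could not have been seen to fall. On high cholesterol each replicate was above all chow replicates, replicate 2 being the highest and replicate 1 the lowest on that diet, and Gstm3 rose by 2.67 ± 0.61 (adjusted p = 0.00915). The same split of replicates 2 and 4 from 1 and 3 appeared in all of these. Gsta4 and Gstm1 varied less across the high cholesterol arrays, at 10.1 to 11.1 and 14.2 to 14.6; Gsta4, which clears lipid peroxidation products, rose by 1.54 ± 0.22 (adjusted p = 0.000762) and Gstm1 rose by 1.59 ± 0.13 (adjusted p = 3.75e-05). Gsta3, bright on all arrays, did not pass the test at -0.11 ± 0.13 (adjusted p = 0.552). Probes of near-identical family members may share signal, which was not tested.

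The list's mean difference from the chow arrays was 1.04, 2.31, 1.21 and 2.24 on high cholesterol replicates 1 to 4, against -0.28 to 0.12 over the chow arrays. The 7 called-higher members with a RefSeq entry had 11 promoter windows. The antioxidant letters TGACNNNGC stood in 1 of the 11 windows (9.09%, against 12.4% of all windows). CCAAT stood in 8 of the 11 windows (72.7%, against 37.4% of all windows), and in at least 1 window of 4 of the 7 genes. By window this share was near the 80% of the sterol genes that fell, but by gene it was 57.1% against 100%. Windows of the same gene can overlap, as those of Gstm4 do, so the windows are not independent.

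Of 17 other targets of NRF2, the transcription factor of the antioxidant response, 9 rose and 0 fell, with a median of 0.59. Cbr1, a carbonyl reductase, read 8.48, 8.21, 8.55 and 8.44 on the chow arrays and 9.76, 11.11, 10.29 and 10.66 on the high cholesterol arrays. Every high cholesterol array lay above every chow array, replicate 2 being the highest and replicate 1 the lowest on that diet, and Cbr1 rose by 2.03 ± 0.24 (adjusted p = 0.000377). Its relative Cbr3 rose by 2.07 ± 0.53 (adjusted p = 0.0153), highest in replicate 2. Gclc, the catalytic subunit of the enzyme that limits glutathione synthesis, rose by 1.18 ± 0.25 (adjusted p = 0.00642). Txn1, thioredoxin, read 6.80, 6.82, 6.76 and 7.00 on the chow arrays and 7.97, 8.16, 8.08 and 8.34 on the high cholesterol arrays, tight in both groups. The groups did not overlap, with high cholesterol above chow, and Txn1 rose by 1.29 ± 0.12 (adjusted p = 0.000115). Hmox1, heme oxygenase, rose by 0.59 ± 0.18 (adjusted p = 0.0293) and was not called without chow replicate 1 or 4 or high cholesterol replicate 2 or 3 (adjusted p up to 0.0803). Nqo1, a quinone reductase often used as a marker of NRF2, did not pass the test at 0.23 ± 0.21 (adjusted p = 0.427). Among superoxide and peroxide enzymes and metallothioneins, 5 of 17 rose (3 with median scaling) and 2 fell, the number fallen being 1 without chow replicate 1, 2, 3 or 4 or high cholesterol replicate 2. Gpx4, which reduces lipid peroxides, rose by 1.02 ± 0.18 (adjusted p = 0.00269). Mt1, a metallothionein, read 11.65, 11.11, 13.40 and 9.26 on high cholesterol and did not pass the test at 1.38 ± 0.67 (adjusted p = 0.141).

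Cytochrome P450 enzymes of families 2 and 3, which act on drugs and steroids, rose in 10 of 20 and fell in 2 (4 with median scaling), with a median of 0.56. Cyp3a11, which hydroxylates bile acids and drugs, read 12.75, 12.54, 13.10 and 12.76 on the chow arrays and 14.37, 14.55, 13.71 and 14.54 on the high cholesterol arrays. All 4 high cholesterol arrays were above the chow arrays, and Cyp3a11 rose by 1.51 ± 0.20 (adjusted p = 0.00063). Cyp2c29 rose by 2.07 ± 0.40 (adjusted p = 0.00417) and Cyp2c55 rose by 2.63 ± 0.69 (adjusted p = 0.0177), both high in replicates 2 and 4. Cyp2c55 read 7.02, 9.51, 5.76 and 9.16 on the high cholesterol arrays, so replicate 3 was close to the chow level. Cyp2c37 and Cyp2c50 went the other way: Cyp2c37 fell by 1.59 ± 0.14 (adjusted p = 5.11e-05) and Cyp2c50 fell by 1.70 ± 0.15 (adjusted p = 5.96e-05), without overlap. Cyp2b10, the usual target of the receptor CAR, spread from 7.56 to 11.3 on high cholesterol and did not pass the test at 0.99 ± 0.63 (adjusted p = 0.261). Nr1i3, the gene of CAR, fell by 0.84 ± 0.28 (adjusted p = 0.0454); it was not called without chow replicate 1, 2, 3 or 4 or high cholesterol replicate 3 or 4 (adjusted p up to 0.111).

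In families 1 and 4, 3 of 9 fell (5 with median scaling) and 0 rose, among them Cyp1a2, which fell by 0.93 ± 0.23 (adjusted p = 0.0137). Of 14 UDP-glucuronosyl and sulfotransferases, 2 rose and 4 fell; Ugt2b34 rose by 1.85 ± 0.20 (adjusted p = 0.000203). Of 20 nuclear receptors and partners, 4 (20%) fell, beside 14.0% of all genes, and 0 rose, with a median of -0.35. The number fallen was 1 without chow replicate 3 and 7 without high cholesterol replicate 1. The number risen was 2 without high cholesterol replicate 3.

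**Figure D3:**
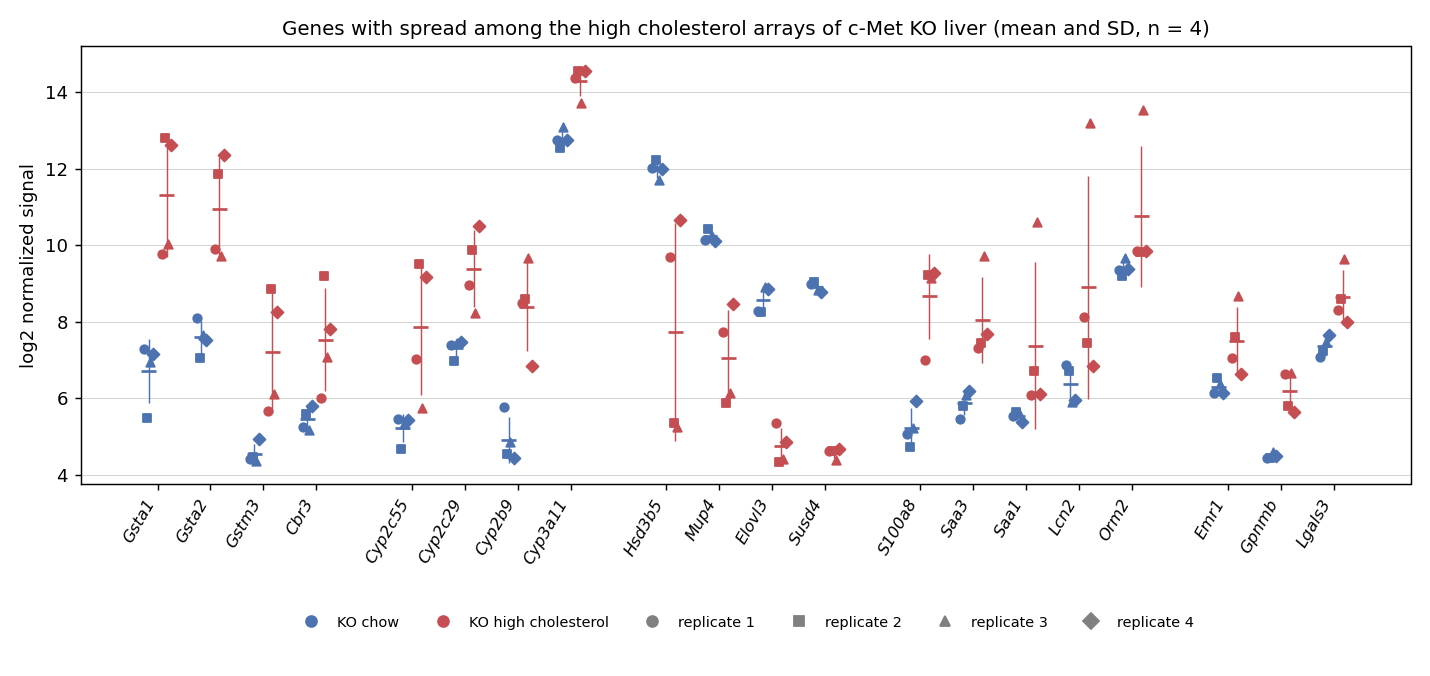
Log2 normalized signal of genes on the chow and high cholesterol KO arrays, 1 symbol shape per replicate, with means and SDs. Many of them spread among the high cholesterol arrays, while Susd4, at 4.38 to 4.69, does not. Gsta1, Gsta2, Gstm3 and Cyp2c55 are highest in replicates 2 and 4, Hsd3b5 is lowest in replicates 2 and 3, and Saa1, Lcn2 and Orm2 are highest in replicate 3.

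Several genes that are higher in male than in female mouse liver fell, and several female-high genes rose. Of 18 male-high genes tested, 8 fell (13 with median scaling) and 0 rose, with a median of -0.71. Of 21 female-high genes listed, 17 were on the array. Of these, 7 were tested, as a gene had to be detected on at least 4 of the 8 arrays. Among the 7, 4 rose and 0 fell (1 with median scaling), with a median of 1.50. Cyp2b13, undetected on chow, and Cyp2b9, detected on 1 chow array, were tested only because all 4 high cholesterol arrays detected them. Neither could have been seen to fall. Without high cholesterol replicate 3, 1 gene of each list was called in the opposite direction. Growth hormone pulses and sex steroids set this pattern in mice, and the labels do not give the sex of these animals. Hsd3b5, a steroid reductase, read 12.01, 12.22, 11.71 and 11.99 on the chow arrays and 9.70, 5.34, 5.24 and 10.65 on the high cholesterol arrays. Replicates 2 and 3 on high cholesterol were low, and replicates 1 and 4 were over 4 log2 units above them. Hsd3b5 fell by 4.25 ± 1.08 (adjusted p = 0.0151). Mup4, a major urinary protein, read 10.14, 10.42, 10.25 and 10.11 on the chow arrays and 7.74, 5.87, 6.14 and 8.47 on the high cholesterol arrays, with the same split of replicates. No high cholesterol array reached the lowest chow array, replicate 4 being the highest and replicate 2 the lowest on that diet, and Mup4 fell by 3.18 ± 0.49 (adjusted p = 0.00118).

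Other male-high genes were low on all 4 high cholesterol arrays. Susd4, an inhibitor of complement, read 9.00, 9.04, 8.83 and 8.77 on the chow arrays and 4.63, 4.63, 4.38 and 4.69 on the high cholesterol arrays. No high cholesterol array detected it, and it fell by 4.33 ± 0.12 (adjusted p = 1.22e-08), at least 14.5-fold. Elovl3, a fatty acid elongase, fell by 3.83 ± 0.24 (adjusted p = 8.9e-06), and Serpina3k, a protease inhibitor, fell by 1.84 ± 0.33 (adjusted p = 0.00294). Among female-high genes, Cyp2b9 read 5.78, 4.55, 4.86 and 4.44 on the chow arrays and 8.48, 8.60, 9.66 and 6.84 on the high cholesterol arrays. It was detected on 1 chow array and all 4 high cholesterol arrays. High cholesterol arrays were above chow without overlap, replicate 3 being the highest and replicate 4 the lowest on that diet, and Cyp2b9 rose by 3.48 ± 0.51 (adjusted p = 0.000927). Cyp2b13 was detected on no chow array and rose by 2.05 ± 0.32 (adjusted p = 0.00125), at least 3.16-fold higher. Cyp2c39 rose by 1.50 ± 0.31 (adjusted p = 0.00559). Replicate 4 was the lowest high cholesterol array for each of these 3 genes. The mean difference of the male-high list from the chow arrays was -0.87, -1.84, -1.76 and -0.74 on replicates 1 to 4, and that of the female-high list was 1.66, 1.67, 1.34 and 0.36.

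Of 19 growth hormone and insulin signalling genes, 6 fell and 2 rose, with a median of -0.33. Igf1, the growth factor that the liver secretes under growth hormone, read 12.25, 12.48, 12.06 and 11.98 on the chow arrays and 11.73, 11.13, 11.52 and 11.28 on the high cholesterol arrays. Here too the high cholesterol values were all below those on chow, and Igf1 fell by 0.78 ± 0.17 (adjusted p = 0.00673). Its plasma carrier Igfals fell by 0.67 ± 0.15 (adjusted p = 0.0088), and Ghr, the growth hormone receptor, fell by 0.56 ± 0.15 (adjusted p = 0.0176). Irs1, an adaptor of the insulin receptor, was detected on 1 chow array and rose by 1.19 ± 0.18 (adjusted p = 0.00108). Pck1, the first committed enzyme of gluconeogenesis, read 5.71, 6.72, 6.76 and 6.56 on the chow arrays and 8.31, 8.52, 8.47 and 8.52 on the high cholesterol arrays, close together on high cholesterol. Chow and high cholesterol arrays were fully separate, the latter higher, and Pck1 rose by 2.02 ± 0.21 (adjusted p = 0.000203). The glycolysis and gluconeogenesis list had 7 risen (4 without chow replicate 2, 4 with median scaling) and 0 fallen (1 with median scaling) genes of 21, with a median of 0.28.

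Amino acid enzymes leaned to the lower side, with 13 of 32 fallen, 5 risen and a median of -0.19. Oat, the ornithine aminotransferase, read 13.79, 13.53, 13.95 and 14.16 on the chow arrays and 12.37, 12.92, 13.09 and 11.84 on the high cholesterol arrays. On high cholesterol each replicate was below all chow replicates, replicate 3 being the highest and replicate 4 the lowest on that diet, and Oat fell by 1.31 ± 0.26 (adjusted p = 0.00457). Hpd, in tyrosine breakdown, fell by 1.02 ± 0.19 (adjusted p = 0.00354), Agxt, which converts glyoxylate to glycine, fell by 0.91 ± 0.19 (adjusted p = 0.00564), and Gnmt, the glycine methyltransferase, fell by 0.66 ± 0.13 (adjusted p = 0.00382). Hal, which degrades histidine, rose by 1.09 ± 0.17 (adjusted p = 0.00122).

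Some inflammatory genes rose, and high cholesterol replicate 3 was the highest array for many of them. In bulk tissue, fewer cells of a type and less RNA per cell cannot be told apart. Of 20 acute phase genes tested, 6 rose and 0 fell (1 with median scaling), with a median of 0.51; the number that rose was 11 without high cholesterol replicate 3. Saa3, a serum amyloid, read 5.45, 5.80, 6.09 and 6.19 on the chow arrays and 7.32, 7.44, 9.71 and 7.69 on the high cholesterol arrays. Every high cholesterol array lay above every chow array, replicate 3 being the highest and replicate 1 the lowest on that diet, and Saa3 rose by 2.16 ± 0.45 (adjusted p = 0.00617). Lbp, which binds bacterial lipopolysaccharide, read 8.24, 8.91, 8.44 and 8.16 on the chow arrays and 9.49, 9.76, 11.02 and 9.70 on the high cholesterol arrays. The groups did not overlap, with high cholesterol above chow, replicate 3 being the highest and replicate 1 the lowest on that diet, and Lbp rose by 1.56 ± 0.31 (adjusted p = 0.00463). Cp, the copper carrier ceruloplasmin, rose by 1.10 ± 0.17 (adjusted p = 0.0012).

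For Orm2, Saa1 and Lcn2, 1 array held most of the difference. Orm2, an orosomucoid, read 9.35, 9.19, 9.67 and 9.39 on the chow arrays and 9.84, 9.83, 13.53 and 9.85 on the high cholesterol arrays: the other 3 high cholesterol arrays lay between 9.83 and 9.85. Lcn2, an iron-scavenging protein of inflammation, read 6.88, 6.72, 5.91 and 5.95 on the chow arrays and 8.12, 7.44, 13.20 and 6.84 on the high cholesterol arrays. Neither passed the test, at 1.36 ± 0.71 (adjusted p = 0.17) for Orm2 and 2.53 ± 1.12 (adjusted p = 0.112) for Lcn2, nor did Saa1 at 1.83 ± 0.83 (adjusted p = 0.12). Without high cholesterol replicate 3 all 3 passed the test at smaller changes, 0.44 (adjusted p = 0.0382) for Orm2, 1.10 (adjusted p = 0.0299) for Lcn2 and 0.75 (adjusted p = 0.0099) for Saa1. The list's mean difference from chow was 0.46, 0.44, 1.96 and 0.44 on high cholesterol replicates 1 to 4.

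Complement and coagulation genes rose in 6 and fell in 3 of 31, or 19.4% and 9.68%, beside 15.0% and 14.0% of all genes. Median scaling gave 4 and 8, and the number fallen was 1 without chow replicate 2, 3 or 4. Cfb, factor B of the alternative complement pathway, read 9.10, 9.18, 9.25 and 9.38 on the chow arrays and 11.30, 11.53, 11.56 and 11.51 on the high cholesterol arrays. The 4 high cholesterol arrays, replicate 3 included, lay close together and far above chow, and Cfb rose by 2.25 ± 0.12 (adjusted p = 3.74e-06). S100a8, a calcium-binding protein of neutrophils and inflamed epithelium, read 5.06, 4.73, 5.22 and 5.93 on the chow arrays and 7.00, 9.23, 9.14 and 9.28 on the high cholesterol arrays. All 4 high cholesterol arrays were above the chow arrays, replicate 4 being the highest and replicate 1 the lowest on that diet, and S100a8 rose by 3.43 ± 0.47 (adjusted p = 0.000718). S100a8 was the 1 tested gene of 14 neutrophil markers; the others did not pass the detection filter or were not matched.

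Of 16 chemokine, cytokine and adhesion genes, 4 rose and 1 fell (0 without chow replicate 1, 3 or 4 or high cholesterol replicate 2 or 4, 2 without high cholesterol replicate 3, 2 with median scaling). Vcam1, which holds leukocytes on endothelium, rose by 1.34 ± 0.18 (adjusted p = 0.000679), Icam1, of the same function, rose by 1.25 ± 0.16 (adjusted p = 0.000542), and the chemokine Ccl9 rose by 1.52 ± 0.13 (adjusted p = 5.96e-05). Of 25 interferon-stimulated genes, 5 rose (2 without chow replicate 1, 3 without chow replicate 3 or 4 or high cholesterol replicate 3, 3 with median scaling) and 0 fell (1 without high cholesterol replicate 3); Ly6e rose by 1.91 ± 0.30 (adjusted p = 0.00133) and Usp18, which removes ISG15 from proteins, rose by 1.07 ± 0.29 (adjusted p = 0.0192). Usp18 read 6.93, 6.93, 8.27 and 6.75 on high cholesterol, with replicate 3 the highest. The share of interferon-stimulated genes that rose was 20%, beside 15.0% of all genes. Of 19 MHC and antigen presentation genes, 2 rose and 0 fell (2 without high cholesterol replicate 3). The number risen was 1 without chow replicate 1, 3 or 4, and 1 with median scaling. H2-Aa, a class II chain, did not pass the test at 0.90 ± 0.37 (adjusted p = 0.0913). These lists were highest in high cholesterol replicate 3. On replicates 1 to 4 the mean difference from chow was 0.15, 0.24, 0.82 and 0.06 for the chemokine, cytokine and adhesion list. It was 0.18, 0.26, 1.06 and 0.17 for the interferon-stimulated list, and 0.08, 0.08, 0.98 and 0.09 for the MHC list.

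Several macrophage markers rose. Of 16 markers of recruited and lipid-laden macrophages listed, all on the array, 8 passed the detection filter. Among these 8, 6 rose and 0 fell, with a median of 1.12. Lysozyme 2 stood under 2 symbols, Lyzs and Lyz2, and both are among the risen. Gpnmb, undetected on chow, passed the filter only through the high cholesterol arrays, so it could not have been seen to fall. Of 12 Kupffer cell markers listed, 10 were tested. Among these 10, 2 (20%) rose, beside 15.0% of all genes, and 0 fell, with a median of 0.51. The number risen was 0 without chow replicate 1, 3 or 4, 1 without high cholesterol replicate 2 and 1 with median scaling. The difference between both lists was not tested. Lyzs, lysozyme 2, read 5.98, 5.84, 6.17 and 6.30 on the chow arrays and 7.57, 8.21, 8.77 and 7.50 on the high cholesterol arrays. No chow array reached the lowest high cholesterol array, replicate 3 being the highest and replicate 4 the lowest on that diet, and Lyzs rose by 1.94 ± 0.26 (adjusted p = 0.000606). Gpnmb, a glycoprotein of lipid-laden macrophages, read 4.43, 4.45, 4.61 and 4.50 on the chow arrays and 6.65, 5.80, 6.65 and 5.64 on the high cholesterol arrays; no chow array and all high cholesterol arrays detected it, at least 2.47-fold higher, and it rose by 1.69 ± 0.23 (adjusted p = 0.000675). Lgals3, galectin 3, rose by 1.28 ± 0.31 (adjusted p = 0.0115), Spp1, osteopontin, rose by 1.27 ± 0.28 (adjusted p = 0.00743), and Cd9 rose by 0.97 ± 0.16 (adjusted p = 0.00191). Cd68, a lysosomal protein of macrophages, did not pass the test at 0.46 ± 0.25 (adjusted p = 0.192).

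Emr1, the F4/80 antigen now named Adgre1, read 6.14, 6.53, 6.37 and 6.14 on the chow arrays and 7.04, 7.59, 8.68 and 6.63 on the high cholesterol arrays. High cholesterol arrays were above chow without overlap, replicate 3 being the highest and replicate 4 the lowest on that diet, and Emr1 rose by 1.20 ± 0.36 (adjusted p = 0.0298), but was not called without chow replicate 1, 3 or 4 or high cholesterol replicate 2 (adjusted p up to 0.0718). Csf1r, the receptor of macrophage growth factor, rose by 0.81 ± 0.26 (adjusted p = 0.0377), and was not called without chow replicate 1, 3 or 4 or high cholesterol replicate 4 (adjusted p up to 0.105); its second probe gave a change of -0.47. Clec4f, which marks Kupffer cells in mice, did not pass the test at 0.14 ± 0.29 (adjusted p = 0.738). On high cholesterol replicates 1 to 4 the Kupffer list's mean difference from chow was 0.18, 0.51, 1.43 and 0.09 and that of the recruited macrophage list 0.88, 0.91, 1.61 and 0.72, both highest in replicate 3. The part of these cells in the acute phase and interferon values was not tested.

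**Figure D4:**
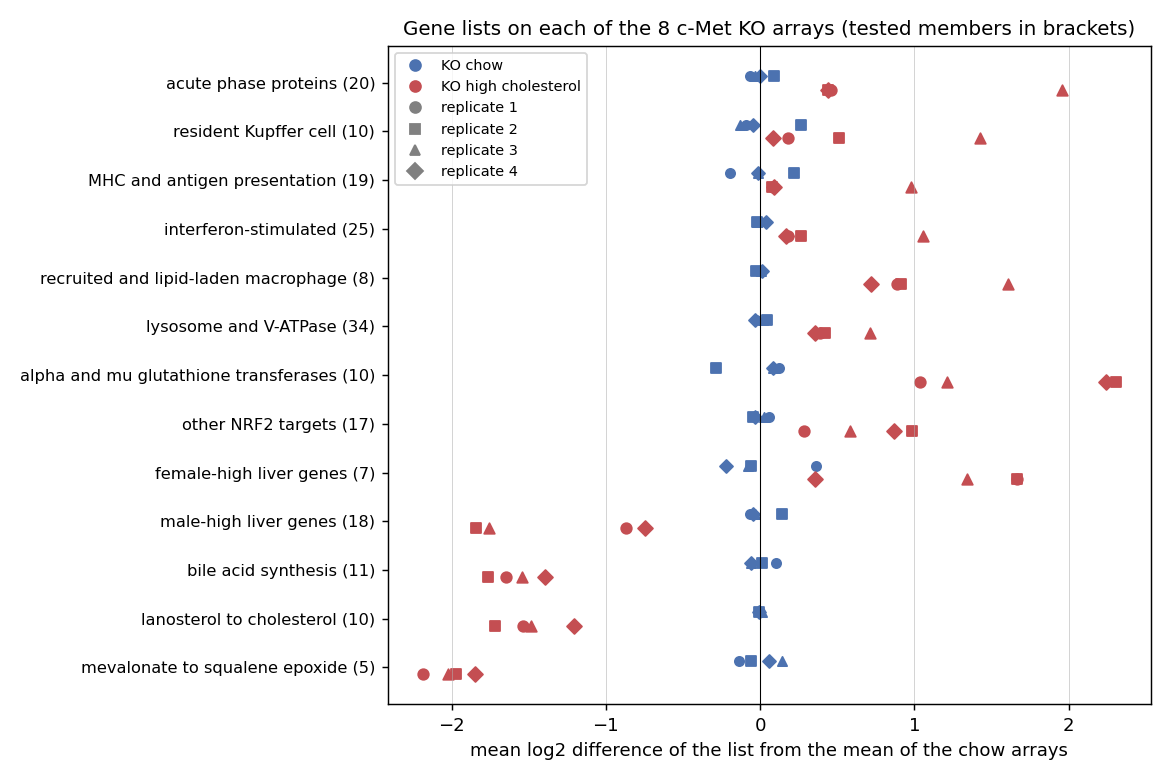
Mean log2 difference of gene lists from the mean of the chow arrays, on each of the 8 KO arrays (chow in blue, high cholesterol in red, 1 symbol shape per replicate). Replicate 3 on high cholesterol lies far to the right for acute phase genes (1.96), while sterol synthesis is low on all 4 high cholesterol arrays.

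Other cell type lists gave few calls. Of 10 stellate cell and fibroblast markers, 2 fell and 0 rose. The number fallen was 0 without chow replicate 2 or high cholesterol replicate 1 or 2. It was 1 without chow replicate 1, 3 or 4 or high cholesterol replicate 4. The brightest probe of Acta2, the actin of activated stellate cells, spread from 6.48 to 9.83 on chow. It did not pass the test at -1.28 ± 0.61 (adjusted p = 0.141). Other Acta2 probes went both ways in limma over all kept probes. Their changes were 0.92 ± 0.26 (adjusted p = 0.0235), -0.63 ± 0.19 (adjusted p = 0.0297) and -0.80 ± 0.46 (adjusted p = 0.212). Of 13 sinusoidal endothelial markers, 1 rose (0 without chow replicate 1, 2 or 4) and 1 fell (2 without high cholesterol replicate 3, 2 with median scaling). Of 5 cholangiocyte and progenitor markers, 3 rose (1 without chow replicate 3 or 4 or high cholesterol replicate 1 or 2) and 1 fell (0 without chow replicate 2). Few lymphocyte and dendritic markers were detected: 1 of 4 T and NK cell markers (0 without chow replicate 1, 2 or 3 or high cholesterol replicate 1 or 2), 0 of 1 B cell markers and 1 of 1 dendritic cell markers (0 without chow replicate 1, 2, 3 or 4 or high cholesterol replicate 2, 3 or 4, 0 with median scaling) rose.

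More lysosomal genes rose than fell, with 13 of 34 higher, 1 lower (2 without high cholesterol replicate 2, 2 with median scaling) and a median of 0.35. Cd63, a membrane protein of lysosomes and exosomes, read 5.99, 6.80, 6.39 and 6.66 on the chow arrays and 8.14, 8.57, 8.64 and 8.73 on the high cholesterol arrays. Here too the high cholesterol values were all above those on chow, and Cd63 rose by 2.06 ± 0.20 (adjusted p = 0.000107). Ctss, a cysteine protease of antigen-presenting cells, rose by 1.47 ± 0.12 (adjusted p = 3.73e-05), Npc2, which carries cholesterol out of lysosomes, rose by 1.18 ± 0.16 (adjusted p = 0.000762), and Atp6v1a, a subunit of the proton pump, rose by 1.09 ± 0.13 (adjusted p = 0.000434). Ctsl, cathepsin L, fell by 0.98 ± 0.19 (adjusted p = 0.00417). Of 29 cytoskeletal genes, 8 rose and 0 fell (1 without chow replicate 2 or high cholesterol replicate 1), with a median of 0.30; Arpc1b, a subunit of the actin-branching complex, rose by 1.45 ± 0.15 (adjusted p = 0.00016), and Krt8, a keratin of hepatocytes and bile ducts, rose by 1.15 ± 0.18 (adjusted p = 0.00147). Of 12 S100 proteins and annexins, 4 rose (2 with median scaling) and 0 fell.

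Of 22 collagen and matrix genes, 5 rose (3 without chow replicate 1 or 2 or high cholesterol replicate 4) and 2 fell (1 without chow replicate 1, 2, 3 or 4 or high cholesterol replicate 1 or 4). Nid1, a basement membrane protein, rose by 0.93 ± 0.19 (adjusted p = 0.00546). Col5a1, a chain of a fibrillar collagen, fell by 0.65 ± 0.20 (adjusted p = 0.0349); it was not called without chow replicate 1, 2, 3 or 4 or high cholesterol replicate 1 or 4 (adjusted p up to 0.0979).

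The receptor for epidermal growth factor, which like c-Met drives hepatocyte growth, fell. Egfr read 10.83, 11.26, 10.89 and 10.87 on the chow arrays and 9.45, 8.30, 9.36 and 9.65 on the high cholesterol arrays. Chow and high cholesterol arrays were fully separate, the latter lower, replicate 4 being the highest and replicate 2 the lowest on that diet, and Egfr fell by 1.77 ± 0.26 (adjusted p = 0.000997). All 4 Egfr probes gave changes between -1.26 and -1.93. Across 17 genes of HGF, MET and EGF receptor signalling, shares were near those of all genes: 3 rose and 2 fell (1 without chow replicate 1, 4 without high cholesterol replicate 1, 5 with median scaling). Dusp6, a phosphatase that ERK signalling induces, rose by 1.15 ± 0.22 (adjusted p = 0.00366). Ccnd1, cyclin D1, which starts the cell cycle, read 9.32, 9.03, 9.66 and 9.34 on the chow arrays and 11.47, 12.27, 11.69 and 11.35 on the high cholesterol arrays. On high cholesterol each replicate was above all chow replicates, and Ccnd1 rose by 2.35 ± 0.21 (adjusted p = 5.96e-05), with changes between 1.93 and 2.35 on its 3 probes. Cdkn1a, the cell cycle inhibitor p21, rose by 1.64 ± 0.29 (adjusted p = 0.00241). Cell cycle and replication genes as a list, Ccnd1 included, had 3 of 16 risen (5 without chow replicate 1) and 1 fallen (0 without chow replicate 2, 3 or 4 or high cholesterol replicate 2 or 4, 4 without high cholesterol replicate 3, 3 with median scaling). Of 22 p53 targets and apoptosis genes, 5 rose (3 without chow replicate 1, 3 or 4 or high cholesterol replicate 2, 3 with median scaling) and 3 fell.

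Broad housekeeping groups moved by small amounts. Of 46 cytosolic ribosomal protein genes, 16 rose and 1 fell (0 without chow replicate 1 or 4 or high cholesterol replicate 4, 2 without high cholesterol replicate 2), with a median of 0.30, and 10 and 2 with median scaling; Rps21 rose by 0.90 ± 0.16 (adjusted p = 0.00279), while Rps2 fell by 0.44 ± 0.12 (adjusted p = 0.0221) and was not called without chow replicate 1 or 4 or high cholesterol replicate 4 (adjusted p up to 0.0618). Of 56 oxidative phosphorylation genes, 14 rose and 0 fell (1 without high cholesterol replicate 2), with a median of 0.10, but median scaling gave 10 risen and 9 fallen. Ndufb9, of complex I, rose by 1.53 ± 0.16 (adjusted p = 0.000203) and Atp5a1, of the ATP synthase, rose by 1.25 ± 0.16 (adjusted p = 0.000485). Of 26 proteasome genes, 5 rose and 1 fell (0 without chow replicate 3 or 4), which median scaling turned to 5 and 10. Psmd2, a subunit of its regulatory cap, read 4.67, 4.46, 4.92 and 4.66 on the chow arrays and 6.79, 7.26, 7.27 and 6.95 on the high cholesterol arrays. Every high cholesterol array lay above every chow array, and Psmd2 rose by 2.39 ± 0.15 (adjusted p = 8.9e-06). Its probe was detected on only 1 chow array, so the chow values lay near background.

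Heat shock genes rose in 4 of 11 (2 with median scaling), including Hspe1, the mitochondrial chaperonin, which rose by 1.06 ± 0.17 (adjusted p = 0.00161). Of 22 genes of the unfolded protein and integrated stress responses, 3 rose (1 without chow replicate 3, 1 with median scaling) and 1 fell (0 without chow replicate 2, 2 without chow replicate 1 or high cholesterol replicate 1, 5 without high cholesterol replicate 3, 2 with median scaling). Of 12 clock genes, 4 rose and 1 fell (2 without high cholesterol replicate 3 or 4, 2 with median scaling); Nr1d2 rose by 1.36 ± 0.16 (adjusted p = 0.00039) and Per1 rose by 1.17 ± 0.24 (adjusted p = 0.00518). The clock list's mean difference from chow was 0.60, 0.63, -0.29 and 0.31 on high cholesterol replicates 1 to 4, lowest in replicate 3. The hour of tissue collection is not given in the labels. Serpins fell in 3 (5 without high cholesterol replicate 3, 6 with median scaling) and rose in 0 of 18 (1 without high cholesterol replicate 1). The share of serpins that fell, 16.7%, was near the 14.0% of all genes. Of 6 negative acute phase genes, 2 rose and 0 fell (2 and 3 with median scaling). Of 18 iron genes, 2 rose (1 without chow replicate 1 or 3 or high cholesterol replicate 1 or 4, 5 without high cholesterol replicate 3, 1 with median scaling) and 1 fell (0 without chow replicate 1 or 3 or high cholesterol replicate 2, 3 or 4, 2 with median scaling).

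Markers of blood and of other organs were uneven. Of 4 red cell genes tested, 3 fell (1 without chow replicate 1 or 4) and 1 rose. The beta globin copies went opposite ways: Hbb-b1 rose by 1.78 ± 0.20 (adjusted p = 0.000258), while Hbb-b2 fell by 1.51 ± 0.20 (adjusted p = 0.000605), detected on no high cholesterol array. They are near-identical in sequence, so their separate changes are uncertain. Hba-a1, an alpha globin, fell by 0.65 ± 0.18 (adjusted p = 0.0199), but was not called without chow replicate 1 or 4 (adjusted p up to 0.06). Ela1, an elastase now named Cela1 and counted with pancreatic markers, read 10.33, 10.12, 10.26 and 10.58 on the chow arrays and 8.44, 7.52, 7.61 and 7.87 on the high cholesterol arrays. The groups were over 1.5 log2 units apart, and it fell by 2.47 ± 0.20 (adjusted p = 3.69e-05); of 3 markers of pancreas, fat, muscle and kidney tested, 1 rose and 1 fell.

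Some of the largest changes lay outside these lists. Hsd17b6, a retinol and steroid dehydrogenase, read 6.17, 6.73, 6.99 and 6.72 on the chow arrays and 10.61, 10.78, 9.44 and 10.27 on the high cholesterol arrays. The groups were over 2 log2 units apart, with replicate 3 the lowest on high cholesterol, and it rose by 3.62 ± 0.28 (adjusted p = 2.88e-05). Bmx, a kinase of the Tec family, read 4.36, 4.63, 5.18 and 4.62 on the chow arrays and 7.20, 6.98, 6.89 and 7.08 on the high cholesterol arrays, detected on 1 chow array. The groups did not overlap, with high cholesterol above chow, and Bmx rose by 2.34 ± 0.17 (adjusted p = 2.38e-05). Among falls, Lrtm1, a membrane protein with leucine-rich repeats, read 9.74, 7.96, 9.02 and 8.92 on the chow arrays and 4.98, 4.38, 4.77 and 4.82 on the high cholesterol arrays. All 4 high cholesterol arrays were below the chow arrays, and Lrtm1 fell by 4.17 ± 0.31 (adjusted p = 2.38e-05). Dct, the dopachrome tautomerase of pigment cells, fell by 3.86 ± 0.21 (adjusted p = 3.74e-06), Olig1, a transcription factor of glial cells, fell by 3.24 ± 0.25 (adjusted p = 2.88e-05), and Gnat1, the transducin of rod cells, fell by 3.21 ± 0.34 (adjusted p = 0.000203); each was detected on all 4 chow arrays. Tlcd2 fell by 3.01 ± 0.21 (adjusted p = 1.37e-05). Serpina4-ps1, a pseudogene, read 6.53, 4.61, 5.22 and 7.96 on high cholesterol, with replicates 1 and 4 above 2 and 3 as for Hsd3b5, and fell by 3.59 ± 0.68 (adjusted p = 0.00353).

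The response was then set against that of the WT by the interaction term of a fit on all 16 arrays, which gives the difference of the diet change in KO minus that in WT. The KO and WT changes share no array. Of 9265 genes tested, 1 (0.0108%) was called, and 966 (10.4%) had an unadjusted p under 0.05. If no gene differed, about 5% would be so on average. That gene was Smpdl3b, a phosphodiesterase anchored in the cell membrane. It read 5.34, 4.80, 5.13 and 5.00 on WT chow, 8.23, 7.89, 9.06 and 7.92 on WT high cholesterol, 5.26, 5.09, 5.28 and 5.00 on KO chow and 5.90, 6.63, 5.47 and 5.57 on KO high cholesterol. In the WT the high cholesterol arrays were all far above the chow arrays, and in the KO the diets were closer but did not overlap. The change was 3.21 ± 0.25 in WT and 0.74 ± 0.25 in KO, a difference of -2.47 ± 0.36 (adjusted p = 0.0219). In the fit on the KO arrays alone it rose by 0.70 ± 0.22 (adjusted p = 0.0371), and was not called without chow replicate 1, 2, 3 or 4 or high cholesterol replicate 1 (adjusted p up to 0.0918). The difference was not called without KO chow replicate 1, 2, 3 or 4 or KO high cholesterol replicate 1, with adjusted p up to 0.0858, nor with a replicate block (adjusted p = 0.0635).

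No other difference passed the test, and that does not show that the genotypes responded alike. The 5 smallest p on either side are given as values. Cyp2b9 read 6.20, 6.91, 7.53 and 6.93 on WT chow, 6.36, 7.15, 4.65 and 4.63 on WT high cholesterol, 5.89, 4.57, 4.91 and 4.46 on KO chow and 8.60, 8.72, 9.78 and 6.97 on KO high cholesterol. The KO chow arrays were low, the KO high cholesterol arrays held the 3 highest values, and the WT arrays overlapped between the diets. The log2 change was -1.20 ± 0.57 in WT and 3.56 ± 0.57 in KO, a difference of 4.76 ± 0.81 (adjusted p = 0.073). On the same side, the differences were 1.03 ± 0.20 (adjusted p = 0.155) for S100a13, 1.33 ± 0.28 (adjusted p = 0.208) for Ccl9, 1.24 ± 0.27 (adjusted p = 0.208) for Arrdc2 and 0.92 ± 0.20 (adjusted p = 0.208) for Ddt. In each of these 4 the KO change was 0.92 to 1.33 log2 above that of the WT.

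On the other side, Tpmt, which methylates thiopurine drugs, differed by -4.40 ± 0.84 (adjusted p = 0.145); on KO high cholesterol it read 9.08, 8.76, 5.28 and 9.29, with replicate 3 far below the rest, and without that array its KO change was 0.73 in place of -0.21. Osbpl3, an oxysterol-binding protein, differed by -1.90 ± 0.37 (adjusted p = 0.145), Cdk6, a cell cycle kinase, by -1.10 ± 0.21 (adjusted p = 0.145), and H1fx, a linker histone, by -1.32 ± 0.28 (adjusted p = 0.208). For genes that led the KO response, the WT changes were -7.97 ± 0.14 for Cyp8b1, -5.21 ± 0.61 for Cyp7a1, -3.16 ± 0.33 for Fdps and 6.04 ± 0.56 for Gsta1. The change of Gpnmb was 4.14 ± 0.41 in WT against 1.79 ± 0.41 in KO, a difference of -2.35 ± 0.58 (adjusted p = 0.247), and that of Cd63 was 3.55 ± 0.25 against 2.06 ± 0.25, a difference of -1.48 ± 0.35 (adjusted p = 0.237).

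**Figure D5:**
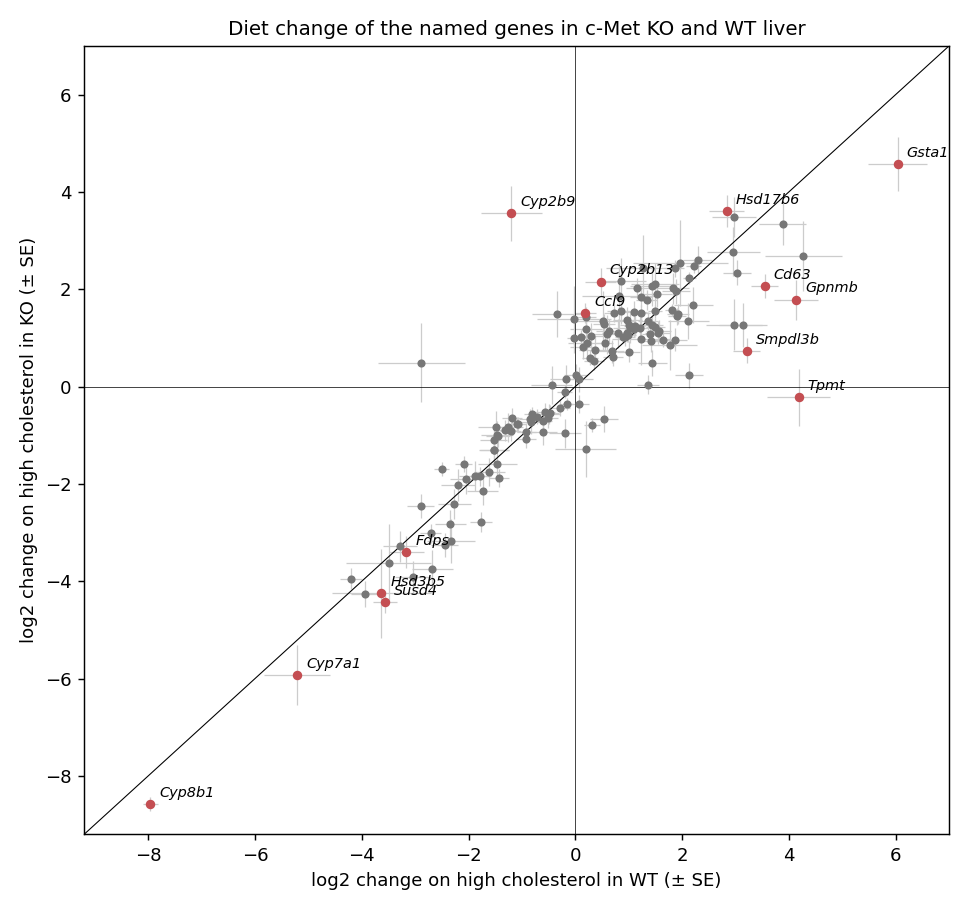
Log2 change on the high cholesterol diet in KO (vertical) against WT (horizontal) for the named genes, with standard errors, and a diagonal line where both are equal. Cyp2b9 lies far above the line, and Smpdl3b, the 1 called difference, and Tpmt lie below it.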

How the data were processed

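The study holds 16 Illumina arrays, each of liver RNA from 1 mouse sample, and the 8 of KO mice were compared. Arrays were read with GenomeStudio 2009.1, per the submitters' processing notes. The deposited table gives, per probe, a background-subtracted intensity that was not normalized between arrays, and a detection p-value, as the file headers and values show. The authors also deposited quantile-normalized intensity values, which served, after log2, as an alternative.

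The deposited intensity was corrected with limma 3.58.1 in R 4.3.3, by a normexp model that takes the background from the detection p-values (offset 16), then quantile-normalized and put on the log2 scale. Probes detected at p under 0.05 on at least 4 of the 8 arrays were kept (10721 of 25697), and the brightest kept probe stood for each of 8193 genes. Of these, 7843 matched the RefSeq gene table and 350 kept the file's name. Of 491 called genes with several kept probes, 157 had a probe of opposite sign. Groups were compared with lmFit and eBayes, two-sided, with Benjamini-Hochberg adjustment over all genes at 0.05. The interaction used all 16 arrays. Where no array of a group detected a gene, "at least" folds set that group at the lowest detected signal of each array. The number of arrays limits the precision.

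The members and the 43 pathway and 12 cell type lists (813 measured genes) were chosen with earlier results of these data known. Lists are described by counts and medians, with no test. Named genes were Met, the 15 largest changes in each direction among called, non-overlapping genes detected on all arrays of the higher group, list members with small p or a defining role, and the 5 smallest interaction p in each direction. Replicate numbers did not pair the arrays: correlations of same-numbered deviations were 0.16, -0.00, 0.01 and 0.10. A few genes that this rule names are not reported here. The procedure was tested on simulated data. Alternatives were another background, normalization, filter or probe rule, the authors' values, a replicate block, all 16 arrays, a variance trend, weights per array, a test against a log2 change of 1, and leaving out each array. A slide block was not run, since the files give no slide. Promoters came from RefSeq, GRCm38.p6. Plots used matplotlib 3.10.9 under Python 3.11.15.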

Additional observations from a re-analysis of the deposited data

Results flagged for a closer look

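Single arrays were compared with the other 3 of their group for each named gene, as the gap to the nearest array over the range of the group. Of 300 gene and group pairs, 23 (7.67%) had an array past the 95% limit. Chance gives about 5% for unselected genes, but these genes were chosen from the same data, so the shares are not comparable. Of the 23, 7 were high cholesterol replicate 3. That array was the highest for Orm2 (0.994), Mvd (0.889), Csf1r (0.879), Usp18 (0.876), Saa1 (0.865) and Saa3 (0.846), and the lowest for Tpmt (0.867). Among the other high cholesterol arrays, replicate 1 was low for S100a8 (0.938) and high for Dct (0.884), replicate 2 was low for Srebf1 (0.914), and replicate 4 was low for Cyp4a14 (0.848).

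On chow, replicate 2 was high for Cyp7b1 (0.93) and Egfr (0.866) and low for Srebf1 (0.84). Chow replicate 1 was high for Tm7sf2 (0.906) and low for Abcb11 (0.841) and H2-Aa (0.896). Chow replicate 3 was high for Ostb (0.902), Slco1a4 (0.846) and Fads2 (0.86), and chow replicate 4 for Gstm3 (0.857), Gpx4 (0.836) and Ndufb9 (0.882). The cause was not tested for any of these.

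The diet change of Smpdl3b in KO minus that in WT was -2.47 ± 0.36 (adjusted p = 0.0219) by the interaction term of limma, the 1 difference between the genotypes that passed the test. It did not pass with a replicate block (adjusted p = 0.0635) or without any 1 of KO chow replicates 1 to 4 or KO high cholesterol replicate 1 (adjusted p up to 0.0858).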

How the results depend on the processing

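The number of genes called was 2380, and it lay between 1706 and 2403 when each array was left out, with 954 to 1249 higher and 752 to 1154 lower. Other settings gave between 2007 (no background model) and 2832 (no detection filter) calls, all within 1.5 times. Testing against a log2 change of at least 1 left 37 calls, 15 higher and 22 lower. Median scaling gave 1048 higher and 1711 lower calls, and a median change of all genes of -0.12. With a replicate block 2252 genes were called; the numbers do not pair the arrays.

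The difference between the genotypes gave 1 call, 0 with a replicate block, 3 with median scaling and 0 to 3 without 1 array; the adjusted p of Smpdl3b ranged from 0.000988 to 0.0858 over the same settings. Of 150 named genes, 131 were called, and 115 of these stayed past the threshold without each array. In every alternative in which they were tested, the test against a log2 change of at least 1 included, 27 stayed called. Directions turned as follows. Srebf1 (0.03) was -0.092 with median scaling, -0.00373 with array weights, and -0.31 to 0.39 when each array was left out, below 0 without chow replicate 2 or high cholesterol replicate 1, 3 or 4. With the mean of probes, Insig1 (0.15) was -0.94 and Clec4f (0.14) -0.10, and single probes of each differ in direction. Without 1 array, Insig1 was -0.00511 (chow replicate 2) to 0.26, and Clec4f -0.14 (high cholesterol replicate 3) to 0.35. Tpmt (-0.21) was 0.12 with array weights, and -0.61 to 0.73 (without high cholesterol replicate 3) when each array was left out. None of these 4 genes had been called, but 2 of the turned values pass the threshold: Insig1 with the mean of probes (adjusted p = 0.00894) and Tpmt without high cholesterol replicate 3 (adjusted p = 0.0112). Other causes were not tested. Signals near background limit the size of falls.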
